A study of Sus scrofa with 14 samples.

Results

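The genes through which blood vessels are lined, held together and made sticky for white blood cells were followed in the pig meniscus, the fibrocartilage pad of the knee: PECAM1, CDH5, ENG, VWF, SELE, SELP, VCAM1 and ICAM1. Every probe of the array whose RefSeq transcript accession belongs to one of these pig genes was taken, which gave 11 of the 43603 non-control probes and 7 of the 8 genes. PECAM1 was read by 3 probes, CDH5 and SELE by 2 each, and ENG, SELP, VCAM1 and ICAM1 by 1 each. VWF had no probe under this rule and was not analysed here. Probes of a gene are numbered from the highest mean signal down.

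The tissue came from 14 male Wuzhishan pigs aged 6 to 7 months, with 1 array per animal. In the osteoarthritis group (OA, 7 animals) the anterior cruciate ligament had been operated on 24 weeks before sampling, and in the sham group (7 animals) a sham operation had been done 24 weeks before. The labels do not say what was done to the ligament, which part of the meniscus was used or whether the age is that at surgery or at sampling. Each array carried Cy3-labelled cRNA of whole tissue, so that a lower level can come from fewer cells of a type or from less RNA per cell, and these cannot be told apart.

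Endothelial cells line blood vessels, which in the adult meniscus are known to reach mainly its outer rim. PECAM1 (CD31) and CDH5 (VE-cadherin) join endothelial cells at their borders, and ENG (endoglin) is a coreceptor for bone morphogenetic protein and TGF-beta ligands. Leukocytes leave the blood in steps. SELE and SELP, the endothelial selectins, catch and roll the passing cells. ICAM1 and VCAM1, of the immunoglobulin superfamily, then bind leukocyte integrins and hold the cells firmly. SELE, VCAM1 and ICAM1 are well known to be induced by inflammatory cytokines through nuclear factor kappa B. The proteins of SELP and VWF are stored in endothelial granules. VCAM1 and ICAM1 are also made by stromal cells such as synovial fibroblasts, and PECAM1 is also carried by platelets and some leukocytes.

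All 11 probes were well above background on all 14 arrays, in OA and in sham. The arrays themselves differed: their raw 75th percentile of signal was 156 to 491 in OA and 417 to 618 in sham, and 67.9% to 89.3% of probes were well above background in OA against 89.7% to 95.2% in sham. OA arrays lay on slides 3 (OA 1), 4 (OA 2 to OA 5) and 5 (OA 6 and OA 7) and sham arrays on slides 1 and 2, a slide being a set of arrays with the same scan time. OA and sham never shared a slide or a scan day, so group and slide cannot be told apart in any comparison below. Levels below are therefore log2 of a probe's signal relative to its own array's 75th percentile, called the relative level. Because hybridisation differs between probes, relative levels are compared between animals and not between probes.

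No adhesion gene passed the test of OA against sham. Of the 11 probes, 0 passed a limma adjusted p of 0.05, against 3.73% of all 38818 tested probes. An unadjusted p under 0.05 was met by 0, against 19.6% of all tested probes. The nearest was PECAM1 probe 1, at an unadjusted limma p of 0.051. With other processing the unadjusted count was 0 to 2. It was 2 with array weights, against 20.0% of all tested probes, and 2 without OA 6, against 22.3%. The change was positive for 5 probes and negative for 6, with a median of -0.06 on the log2 scale beside -0.05 over all tested probes. The ranges of OA and sham overlapped for all 11 probes, and they stood apart for only 1.73% of tested probes. At shares of 3.73% and 1.73%, a count of 0 among 11 probes does not set them apart from other probes. What the probes do show is how far animals of the same group lay from each other, and which of these genes moved together from animal to animal.

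**Figure D1:**
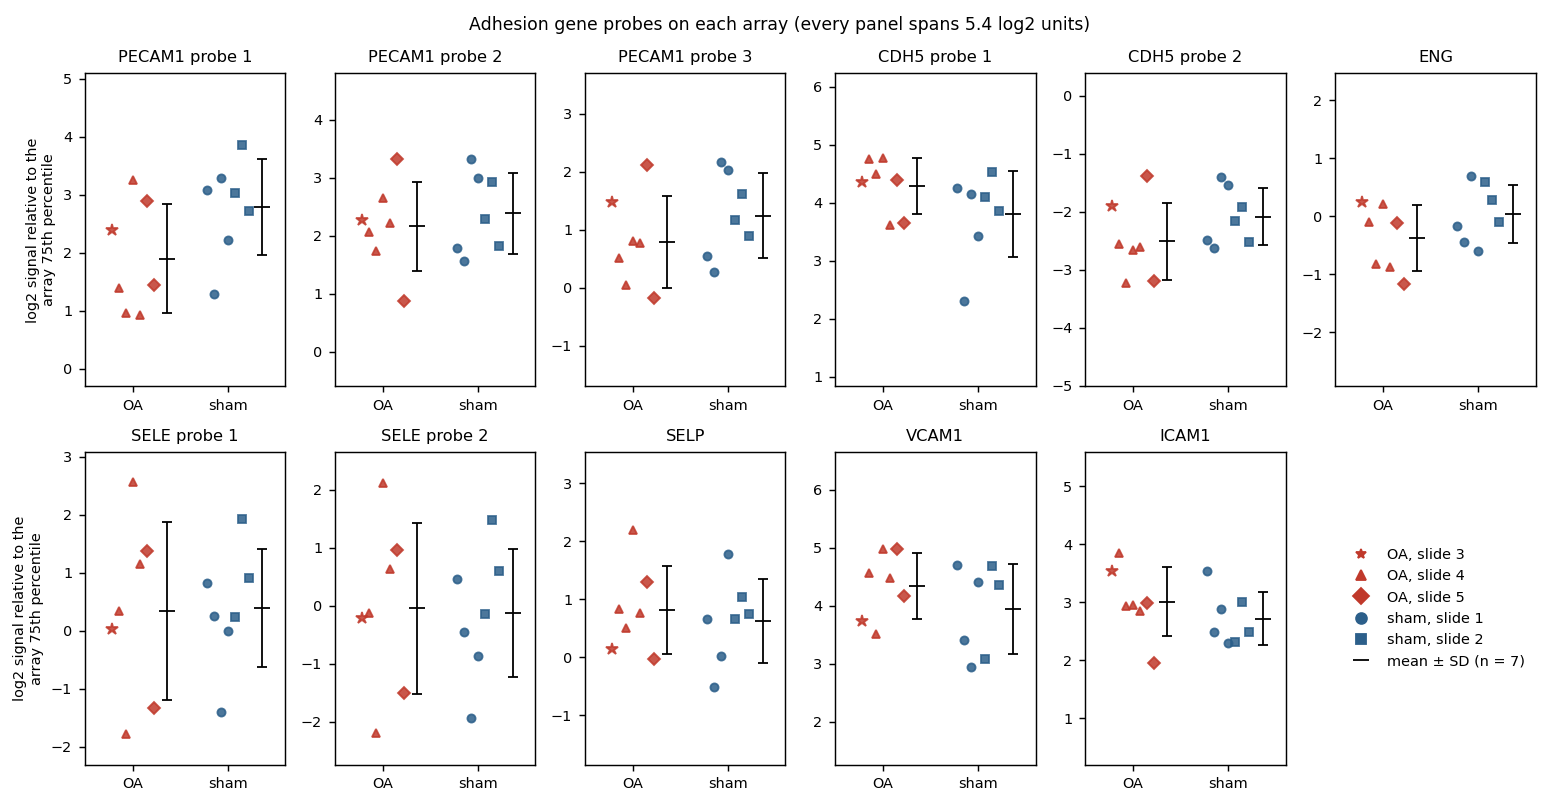
Relative level (log2 signal relative to the array's 75th percentile) of each of the 11 probes, with 1 point per animal, OA left and sham right in each panel, marker shapes for the slides, and the mean with its SD (n = 7) beside the points. OA and sham points overlap in every panel, and the SELE panels have the widest scatter, with SDs of 1.53 in OA and 1.02 in sham for probe 1.

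Of the junction genes, PECAM1 had the largest negative change, but on 1 of its 3 probes. PECAM1 probe 1 had signals of 371 (lowest), 1182 (median) and 2996 (highest) in OA, against 1022, 4605 and 8970 in sham. Its relative level ran from 0.94 over a median of 1.45 to 3.26 in OA, and from 1.29 over a median of 3.03 to 3.86 in sham. OA 4 (3.26) and OA 6 (2.89) lay above the sham mean of 2.79, OA 2, OA 3, OA 5 and OA 7 lay between 0.94 and 1.45, and the sham animal with the lowest level, sham 2 at 1.29, lay among these. The change was -0.89 ± 0.42 (SE; log2, n = 7 per group; limma adjusted p = 0.26), with a 95% interval of -1.78 to 0.01. By slide, the OA mean lay 1.15 below the sham mean on slide 4 and 0.61 below it on slide 5, and OA 1 lay 0.39 below it; the sham arrays of slide 2 lay 0.73 above those of slide 1.

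PECAM1 probes 2 and 3 showed smaller changes. The relative level of PECAM1 probe 2 ran from 0.87 over 2.21 to 3.33 in OA and from 1.56 over 2.28 to 3.32 in sham (lowest, median and highest), with signals of 631 to 4048 in OA and 1233 to 4843 in sham. OA 7 was lowest and OA 6 highest of all 14 animals, and the other 5 OA animals lay within the sham range. Its change was -0.23 ± 0.35 (SE; log2, limma adjusted p = 0.77). PECAM1 probe 3 ran from -0.17 over 0.77 to 2.12 in OA and from 0.28 over 1.17 to 2.17 in sham, with signals of 197 to 1749 in OA and 507 to 2498 in sham. OA 7 and OA 3 lay below the sham range and the other 5 OA animals within it. The change was -0.45 ± 0.37 (limma adjusted p = 0.53).

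The 2 probes of CDH5 gave changes of opposite sign. CDH5 probe 1 had signals of 3051, 4608 and 8443 in OA (lowest, median and highest) and 2058, 8291 and 14322 in sham. Relative to the array it ran from 3.61 over 4.39 to 4.77 in OA and from 2.30 over 4.10 to 4.53 in sham. OA 2 and OA 4 lay above every sham animal, and sham 2 lay lowest of all, at 2.30. The change was 0.49 ± 0.31 (SE; log2, limma adjusted p = 0.41), with a 95% interval of -0.17 to 1.14.

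CDH5 probe 2 was dim, with signals of 20.2, 41.0 and 154 in OA and 67.9, 131 and 210 in sham. Its relative level ran from -3.23 over -2.61 to -1.39 in OA and from -2.62 over -2.16 to -1.39 in sham. OA 3, OA 7 and OA 4 lay below the sham range, and OA 6 stood at -1.39, as did the highest sham animal. The change was -0.42 ± 0.29 (limma adjusted p = 0.46). The distance between the 2 probes, probe 1 minus probe 2, averaged 6.80 ± 0.73 in OA and 5.89 ± 0.75 in sham (SD, log2, n = 7 each), a difference of 0.90 (two-sided exact permutation p = 0.045). After adjustment over the 5 pairs of probes that share a gene this difference did not pass (exact permutation, adjusted p = 0.21). With the probes of a gene averaged, the change was -0.52 ± 0.34 for PECAM1 (SE; log2, limma adjusted p = 0.42) and 0.03 ± 0.25 for CDH5 (adjusted p = 0.96).

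ENG, read by 1 probe, had signals of 107, 187 and 372 in OA (lowest, median and highest) and 306, 531 and 879 in sham. After scaling it ran from -1.16 over -0.11 to 0.24 in OA and from -0.61 over -0.10 to 0.69 in sham. The medians were near equal, but OA 3, OA 5 and OA 7 lay below every sham animal. The change was -0.41 ± 0.27 (SE; log2, limma adjusted p = 0.43), with a 95% interval of -0.99 to 0.16.

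The selectin SELE differed more between animals of one group than any other gene of the set. SELE probe 1 had signals of 55.1, 256 and 1051 in OA and 178, 688 and 2358 in sham. Its relative level ran from -1.79 over 0.34 to 2.57 in OA and from -1.39 over 0.25 to 1.93 in sham, so that after scaling the highest animal stood 20.5-fold above the lowest in OA and 10.0-fold above it in sham. OA 4, OA 6 and OA 5 were high, OA 3 and OA 7 low, and in sham 1 animal was high (sham 6) and 1 low (sham 3). Averaged over the groups its within-group SD was 1.30 on the log2 scale, larger than that of 98.7% of all tested probes, whose median SD was 0.45. The change was -0.06 ± 0.61 (limma adjusted p = 0.97), with a 95% interval of -1.34 to 1.23, so that changes of more than 2-fold in either direction lay within it. SELE probe 2 gave the same picture, with relative levels of -2.20, -0.12 and 2.12 in OA and -1.94, -0.14 and 1.48 in sham (lowest, median and highest) and a change of 0.08 ± 0.61 (limma adjusted p = 0.96).

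SELP had signals of 250.0, 423 and 995 in OA and 294, 923 and 2084 in sham. Relative levels ran from -0.03 over 0.76 to 2.20 in OA and from -0.50 over 0.67 to 1.78 in sham. OA 4 stood above every sham animal, and the other 6 OA animals lay within the sham range. The change was 0.19 ± 0.36 (SE; log2, limma adjusted p = 0.81). Without OA 4 it was -0.04.

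The integrin ligands VCAM1 and ICAM1 had positive changes that did not pass. VCAM1 had signals of 2171, 4897 and 12711 in OA and 3582, 9700 and 15986 in sham (lowest, median and highest). Its relative level ran from 3.51 over 4.47 to 4.98 in OA and from 2.94 over 4.36 to 4.70 in sham. OA 4 and OA 6 lay above every sham animal, and sham 2, sham 3 and sham 5 below every OA animal. The change was 0.40 ± 0.33 (SE; log2, limma adjusted p = 0.53), which is 1.32-fold.

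ICAM1 had signals of 1208, 1898 and 3205 in OA and 2336, 2991 and 6925 in sham. Relative levels ran from 1.95 over 2.96 to 3.84 in OA and from 2.30 over 2.49 to 3.54 in sham. Of the OA animals 6 lay above the sham mean of 2.71 and OA 7 lay below every sham animal. The change was 0.29 ± 0.27 (SE; log2, limma adjusted p = 0.59). On slide 4 the OA mean lay 0.43 above the sham mean and OA 1 0.81 above it, whereas on slide 5 it lay 0.24 below it.

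**Figure D2:**
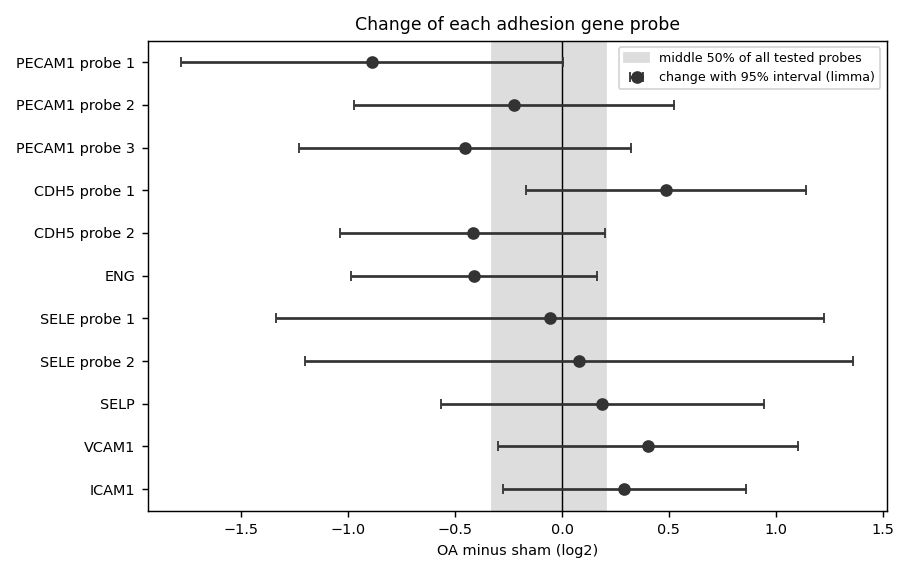
Change of each probe (OA minus sham, log2) with its 95% interval from limma, over a grey band that holds the middle 50% of changes of all tested probes (-0.33 to 0.21). All 11 intervals include 0, and that of PECAM1 probe 1 reaches 0.01.

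How well different probes of a gene agreed from animal to animal was read from their correlation over the 14 arrays after each group's mean was subtracted, so that a difference between the groups plays no part. All 55 pairs of the 11 probes were computed, with two-sided p from 100000 permutations of the animals within their groups and Benjamini-Hochberg adjustment over the 55 pairs. All points share the scaling of their array, and by r 8 pairs passed, by rank correlation 5. Of the 8, 6 were among the 50 pairs of different genes, where SELE with VCAM1 entered once for each SELE probe. The share of all pairs of tested probes that reach such an r was not computed. The counts of 8 and 5 therefore do not show that these probes moved together more than other probes did. The correlation was positive in 54 pairs, and a member's r with all other tested probes was positive for 33.85% (CDH5 probe 1) to 63.0% (CDH5 probe 2) of them.

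The 2 SELE probes tracked each other almost exactly (r = 0.99, rho = 0.97; permutation adjusted p = 0.000275 for both, from the smallest p that the permutations can give, 1e-05). Of 38808 other probes, probe 2 was the closest to probe 1 and probe 1 the closest to probe 2. As a check, the 2 animals farthest from the median on 1 probe of a pair, with group means subtracted, were left out. That probe was of the gene earlier in the order PECAM1, CDH5, ENG, SELE, SELP, VCAM1, ICAM1, or else the lower-numbered one. Extremes of the other probe could stay in. For SELE, without OA 4 and OA 3, r was 0.98. It was 0.99 after each slide's mean was subtracted (13 arrays, since OA 1 was alone on its slide). The wide scatter of SELE is thus measured by both probes.

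The probes of PECAM1 and CDH5 sorted differently. PECAM1 probes 2 and 3 followed each other (r = 0.93, rho = 0.96; permutation adjusted p = 0.000917 and 0.000275), but PECAM1 probe 1 followed them less closely (r = 0.60 with probe 2 and 0.57 with probe 3; permutation adjusted p = 0.15 for both r, and rho = 0.53 and 0.58 with adjusted p = 0.19 and 0.15). The 2 probes of CDH5 had r = 0.26 and rho = 0.27 (permutation adjusted p = 0.55 and 0.52); with quantile normalization and in the authors' table r was 0.51, past an unadjusted permutation p of 0.05. Without the 2 animals farthest out on the lower-numbered probe, r was 0.90 for PECAM1 probes 2 and 3, 0.51 for probes 1 and 2, 0.56 for probes 1 and 3, and 0.06 for the CDH5 probes.

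CDH5 probe 2 instead followed PECAM1 probes 2 and 3. With PECAM1 probe 3 it had r = 0.97 and rho = 0.93 (permutation adjusted p = 0.000275 and 0.000917), and each was the closest to the other among 38808 other probes. With PECAM1 probe 2 it had r = 0.88 and rho = 0.87 (permutation adjusted p = 0.00206 and 0.00234), and r was 0.82 without OA 7 and OA 6. Within the groups r with PECAM1 probe 3 was 0.98 in OA and 0.98 in sham, it was 0.98 with slide means subtracted, and it was 0.96 without OA 6 and sham 3.

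CDH5 probe 1 followed PECAM1 probe 1 by r, but not by rank correlation after adjustment. PECAM1 probe 1 and CDH5 probe 1 had r = 0.73 and rho = 0.70 (permutation adjusted p = 0.032 and 0.066), with r = 0.47 in OA and 0.97 in sham, 0.79 with slide means subtracted, and 0.58 without sham 2 and OA 4. ENG followed PECAM1 probe 1 as well (r = 0.74, rho = 0.69; permutation adjusted p = 0.040 and 0.073), at 0.77 in OA, 0.71 in sham, 0.78 with slide means subtracted and 0.69 without sham 2 and OA 4. Many other probes were as close. By r with PECAM1 probe 1, 0.74% of tested probes were at least as close as CDH5 probe 1 and 0.65% as ENG. Read from the other side, PECAM1 probe 1 was matched by 1.3% of tested probes for CDH5 probe 1 and 0.53% for ENG. ENG and CDH5 probe 1 had r = 0.66 and rho = 0.63, which did not pass (permutation adjusted p = 0.054 and 0.11). The order of the animals for PECAM1 or CDH5 thus differed with the probe that was read. Whether the PECAM1 correlations differed from each other was not tested. The estimated CDH5 changes had opposite signs, at 0.49 for probe 1 and -0.42 for probe 2. Neither passed (limma adjusted p = 0.41 and 0.46), nor did the difference between the probes (exact permutation, adjusted p = 0.21). With normexp background correction both CDH5 changes were positive, at 0.37 and 0.10. A dependence of the CDH5 sign on the probe is thus not established. Which stretch of the transcript each probe covers was not analysed here.

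**Figure D3:**
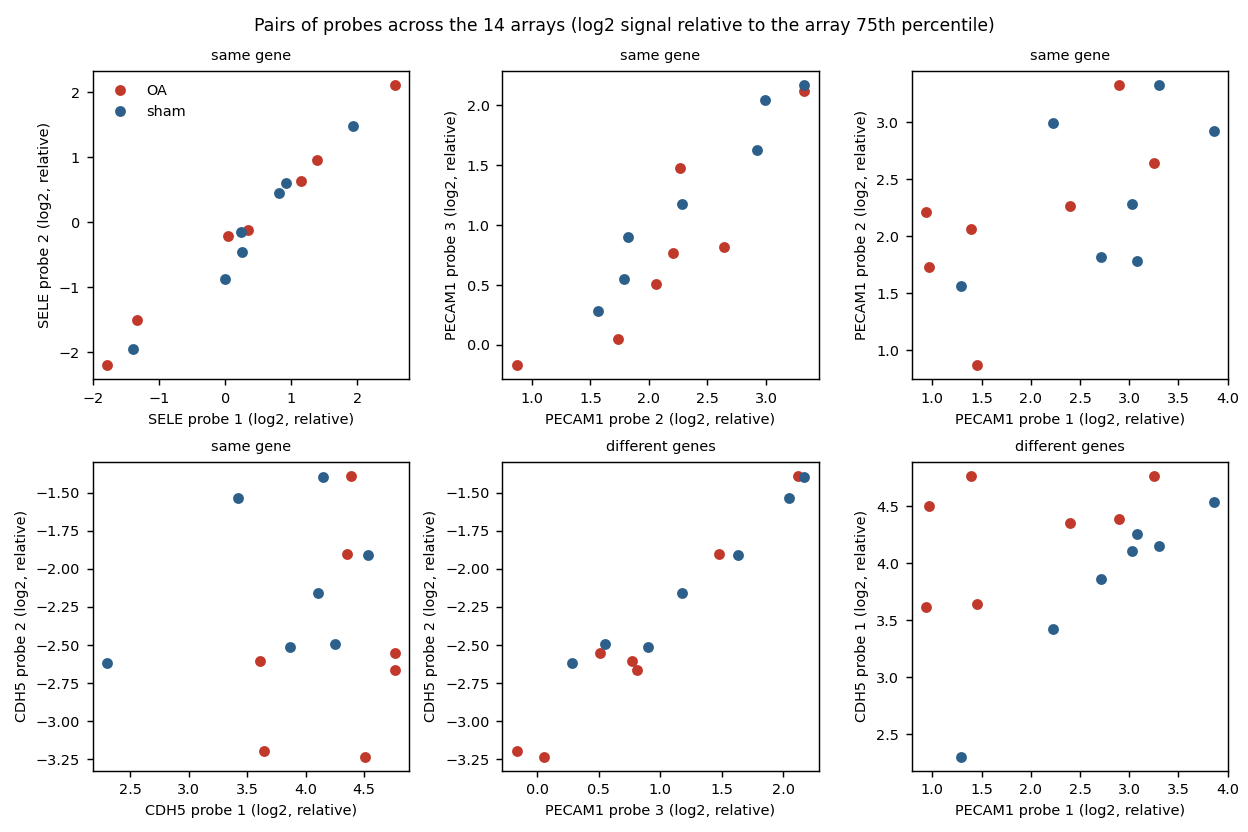
Relative levels (log2) of 6 pairs of probes, with 1 point per animal in OA and in sham. SELE probes 1 and 2, PECAM1 probes 2 and 3 and the pair of PECAM1 probe 3 with CDH5 probe 2 lie along a line. The CDH5 probes scatter, with r = 0.08 for the points shown and 0.26 after each group's mean was subtracted.

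Among the leukocyte-catching genes SELE and VCAM1 followed each other between animals, in OA and in sham. SELE probe 1 and VCAM1 had r = 0.75 and rho = 0.73 (permutation adjusted p = 0.011 and 0.033), with r = 0.84 in OA and 0.75 in sham, 0.80 with slide means subtracted and 0.69 without OA 4 and OA 3. By r with SELE probe 1, 1.47% of tested probes were at least as close as VCAM1. SELE probe 2 and VCAM1 had r = 0.74 and rho = 0.70, of which r passed (permutation adjusted p = 0.023 and 0.057), and r was 0.67 without the same 2 animals. The pairs of SELP missed the threshold after adjustment. SELP had r = 0.68 with VCAM1 (rho = 0.71; permutation adjusted p = 0.054 and 0.051), which was 0.77 in OA, 0.63 in sham and 0.65 without OA 4 and sham 2. It had r = 0.59 with SELE probe 2 (rho = 0.67; permutation adjusted p = 0.15 and 0.073) and r = 0.63 with SELE probe 1 (rho = 0.61; permutation adjusted p = 0.10 and 0.12). The r of SELP with SELE probe 1 was 0.84 in OA and 0.33 in sham, and 0.51 without OA 4 and OA 3. OA 4 and OA 6 had the highest levels of SELE, SELP and VCAM1 among the OA animals.

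ICAM1 followed these genes less closely. Its r with SELE probe 1, SELP and VCAM1 was 0.26, 0.07 and 0.21 (permutation adjusted p = 0.57, 0.83 and 0.59). With slide means subtracted these were 0.35, 0.12 and 0.44. The largest r of ICAM1 with any of the set was 0.55, with CDH5 probe 1 (rho = 0.65, permutation adjusted p = 0.15 and 0.088). That r was 0.69 in OA, 0.49 in sham, 0.67 with slide means subtracted and 0.72 without sham 2 and OA 5. VCAM1 and ENG gave the 1 negative value, r = -0.12.

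**Figure D4:**
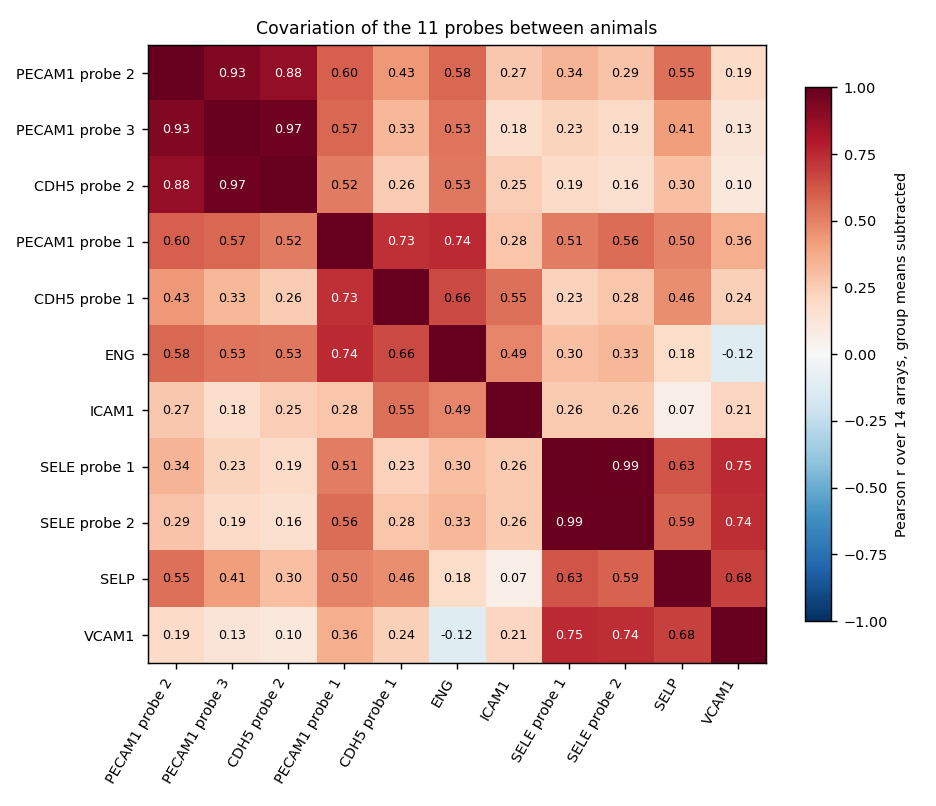
Pearson r of each pair of the 11 probes over 14 arrays after subtracting the mean of each group, on a scale from -1 to 1. Dark blocks mark PECAM1 probes 2 and 3 with CDH5 probe 2, and the SELE probes, which extend to SELP and VCAM1; ICAM1 has values of 0.07 to 0.55.

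The named genes most like each member were looked up among the brightest tested probe of 2257 other genes, by the same r over 14 arrays. These were picked as the highest of many, share the scaling of their arrays, and are given without a test. For PECAM1 (probe 1) they were RGS5, a regulator of G-protein signalling known as a pericyte marker, at r = 0.95, and the potassium channel KCNN3 at 0.91. For CDH5 (probe 1) they were the sphingosine-1-phosphate receptor S1PR5 at 0.92 and the endothelin receptor EDNRB at 0.91, and for ENG the scaffold protein SLC9A3R2 at 0.89 and the tropomyosin TPM1 at 0.88.

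For SELE (probe 1) the closest were LYZ, the lysozyme of phagocytes, at r = 0.95 and ACTR3, a subunit of the actin-nucleating Arp2/3 complex, at 0.93. LYZ was also the second closest to VCAM1, at 0.83, behind the Toll-like receptor TLR6 at 0.85. For SELP they were P14ARF at 0.82 and SPEF2 at 0.81, but the rank correlation of P14ARF was 0.54. For ICAM1 they were FADD, a death-receptor adaptor, at 0.86 and the potassium channel KCNN4 at 0.84. RGS5 stood at a change of 0.05 (limma adjusted p = 0.97) and LYZ at 0.89 (adjusted p = 0.50) between OA and sham. The change was positive for 1 of 2 RGS5 probes and 3 of 3 LYZ probes.

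Genes that work with the members, and markers of vessels, leukocytes and meniscus, were read beside them from 10 lists. Of 113 listed genes 56 were tested, each by its brightest probe, and 0 passed in either direction, against 3.23% of the 2258 tested named genes; 9 of the 56 had an unadjusted p under 0.05, against 15.3% of the tested named genes (limma). Among 7 measured endothelial markers 5 changes were positive and 2 negative, with a median of 0.12. CD34, a sialomucin of endothelium and progenitor cells, stood at 0.41 ± 0.26 (SE, log2, limma adjusted p = 0.40) and THBD, thrombomodulin, at 0.44 ± 0.32 (adjusted p = 0.48). Of the CD34 probes 2 of 3 gave a positive change, and of the THBD probes 3 of 3. NOS3, the endothelial nitric oxide synthase, stood at 0.21 ± 0.36 and CLDN5, the endothelial claudin, at -0.31 ± 0.34. Of the 2 NOS3 probes 1 gave a positive change. These 7 markers were well above background on all 14 arrays, and their mean relative level was 0.98 to 1.73 in OA and 0.24 to 1.71 in sham. The 5 vessel wall muscle and pericyte genes gave 3 positive and 2 negative changes with a median of 0.05, ACTA2, smooth muscle actin, at -0.31 ± 0.24 and MYLK, myosin light chain kinase, at 0.34 ± 0.28.

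The leukocyte side of adhesion was read by 4 genes. ITGB2, the integrin chain that pairs with alpha chains to bind ICAM1, stood at 0.35 ± 0.35 (SE; log2, limma adjusted p = 0.62), ITGB1, a chain of the VCAM1 receptor, at 0.25 ± 0.29 (adjusted p = 0.68), and ITGAL, the alpha chain that pairs with ITGB2, at -0.15 ± 0.22 (adjusted p = 0.73). Of the 4 changes 3 were positive and 1 negative, with a median of 0.20, but of the 6 probes of ITGB1 only 2 gave a positive change. Of 8 leukocyte markers 5 changes were positive and 3 negative, with a median of 0.15, and the list's mean relative level was -1.94 to -0.86 in OA and -1.73 to -0.82 in sham. CD14, a monocyte coreceptor, stood at -0.45 ± 0.24 (adjusted p = 0.33), LYZ at 0.89 ± 0.68 (adjusted p = 0.50) and CD163 at 0.36 ± 0.40 (adjusted p = 0.65). In this list CD3D was well above background on only 4 of 7 OA arrays and CD79A on 6 of 7. The 4 measured meniscus genes, ACAN (aggrecan), DCN (decorin), TNC (tenascin C) and SOX9, were well above background on all 14 arrays; the other 8 of that list, among them COL1A1 and COL2A1, were not analysed here. SOX9, the chondrocyte transcription factor, stood at -0.43 ± 0.46 and ACAN at 0.24 ± 0.37, and the mean relative level of the 4 genes was 4.45 to 6.38 in OA and 4.87 to 6.42 in sham. Of the 3 ACAN probes 2 gave a positive change.

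Among the partners of von Willebrand factor all 5 measured genes had an unadjusted p under 0.05, against 15.3% of the tested named genes, and 0 passed after adjustment (limma), with 4 positive changes, 1 negative and a median of 0.61. ITGB3, the beta chain of the platelet and endothelial integrins, stood at 0.61 ± 0.17 (SE; log2, adjusted p = 0.055) and F8, coagulation factor VIII, which circulates bound to von Willebrand factor, at 0.64 ± 0.19 (adjusted p = 0.077). The negative value was that of GP1BB, well above background on 3 of 7 OA arrays and 7 of 7 sham arrays. With the slide as a random block the adjusted p was 0.26 for ITGB3 and 0.30 for F8, and the share of all tested probes with an unadjusted p under 0.05 was 9.70% instead of 19.6%.

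The list of cytokines that induce adhesion molecules and of genes of the nuclear factor kappa B pathway held 11 measured genes, among them NFKBIA, the pathway's inhibitor, at 0.28 ± 0.20. Of these, 7 changes were positive and 4 negative, with a median of 0.26, and 4 had an unadjusted p under 0.05, against 15.3% of the tested named genes. RELA, a subunit of nuclear factor kappa B, stood at -0.79 ± 0.24 (SE; log2, limma adjusted p = 0.080) and IL1A at 0.39 ± 0.15 (adjusted p = 0.16). IL6 stood at 1.26 ± 0.50 (adjusted p = 0.17) and TNFRSF1A, a receptor of tumour necrosis factor, at 0.74 ± 0.30 (adjusted p = 0.18), while TNF itself stood at -0.15 ± 0.23 (adjusted p = 0.76). A positive change was given by 3 of 3 probes of IL6, 2 of 3 of TNFRSF1A, 1 of 2 of NFKBIA and 1 of 2 of TNF. The 5 genes of the endoglin receptor complex and its ligands had a median of -0.22, with SMAD1 at -0.23 ± 0.24 and TGFB1 at -0.22 ± 0.23. Of 3 junction partners CTNNB1, beta-catenin, stood at 0.21 ± 0.19 and F11R, a junctional adhesion molecule well above background on 5 of 7 OA arrays, at -0.26 ± 0.30. Of 4 angiogenic genes ANGPT2, an angiopoietin of activated endothelium, stood at 0.48 ± 0.24 (adjusted p = 0.27) and HIF1A at -0.41 ± 0.29 (adjusted p = 0.46).

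**Figure D5:**
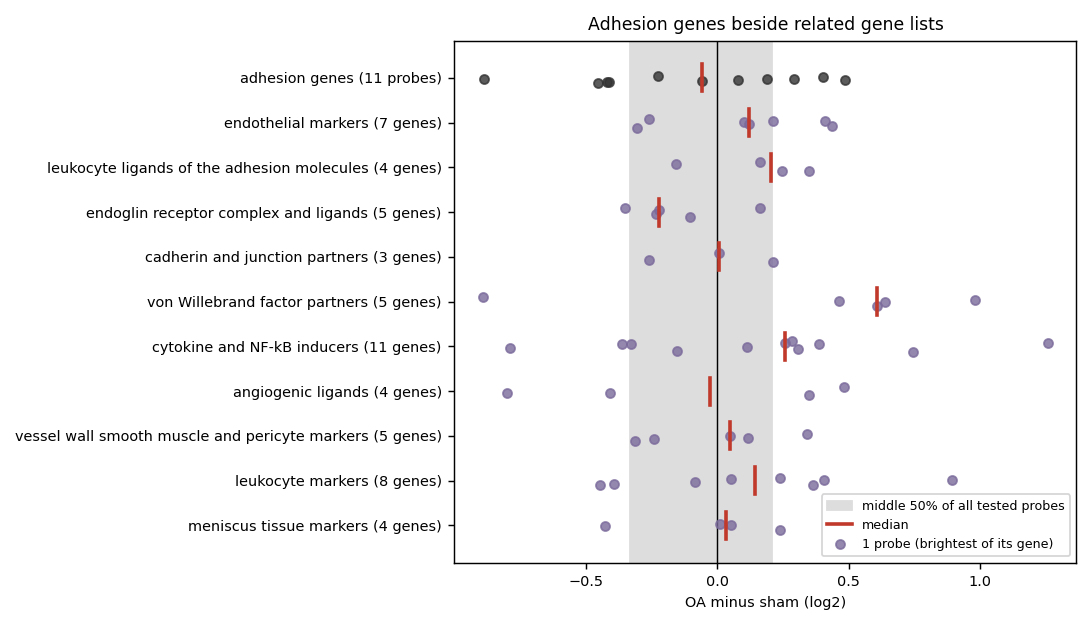
Change (OA minus sham, log2) of the 11 adhesion probes and of the brightest probe of each gene in the 10 lists, with the median of each row in red and the middle 50% of all tested probes in grey. No point of the 11 adhesion probes or the listed genes passed the adjusted threshold. The grey band is the spread of single probes, so the medians are not to be read against it.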

How the data were processed

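The authors deposited 1 scanner file per array with spot intensity values. Agilent Feature Extraction 11.0.1.1 wrote them, per the file headers, with background subtracted inside each array and no normalization between arrays. The authors' series table holds log2 values, deposited without a stated method; its columns had a median of 5.99 on all 14 arrays and followed the scanner signal (Spearman rho 0.994 to 1.00 across probes), so it ran in the same direction, and it was used only as an alternative.

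Relative levels were log2 of the processed intensity minus the array's 75th percentile. The 82 marked spots were set missing, none of them on an adhesion probe, and no spot was saturated. A probe entered the test where 7 or more of the 14 arrays had it well above background, and limma 3.58.1 (lmFit, eBayes; R 4.3.3) gave OA minus sham with a two-sided p, adjusted by Benjamini-Hochberg over all 38818 probes at a threshold of 0.05. The fit was tested on simulated data. Intervals are 95%, and the number of arrays limits the precision.

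Gene names came from RefSeq accessions matched, without version, to the gene table of Sscrofa11.1: 5461 of 5779 such probes, giving 2389 genes. Since the genome build of the array design is not stated, no coordinates are printed. The members and lists were chosen with earlier results of these data known. Named were every member probe, the 2 genes of each list with the smallest p, others of a list as examples chosen after their values were seen, and the 2 genes most like each member. Replicate numbers are not stated to pair the animals, so the main fit used no pairing. Of 7 same-numbered pairs, 2 had a correlation of deviations over 0.1 (range -0.19 to 0.27). Since OA and sham never shared a slide, these values cannot tell whether animals were matched. The raw-signal alternative used the median spot signal, since the files hold no mean.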

Additional observations from a re-analysis of the deposited data

How the results depend on the processing

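Of 29 alternatives, 3 (without slide 4, without slides 3 and 4, array brightness as a covariate) were chosen after seeing the data, as were those of the correlations. In 28 of the 29, 0 of the 11 probes passed. The exception was normexp background correction with an offset of 50, where PECAM1 probe 1 passed at -0.93 (limma adjusted p = 0.047; 0.047 to 0.85 over all alternatives); there 18369 probes (47.3%) passed and the median change of all probes was 0.33 instead of -0.05. CDH5 probe 2 was then positive at 0.10 and SELE probe 1 at 0.038, both below that median.
SELE probe 2 turned to -0.16 with array weights, -0.0023 with the slide as a random block, -0.13 without slide 4, -0.15 without slides 3 and 4 and -0.22 with array brightness as a covariate. SELP was -0.16 without slide 4, and ICAM1 was -0.24 without slides 3 and 4 and -0.21 with the covariate. When each array was left out, the count of passing adhesion probes stayed 0, SELE probe 1 ran from -0.43 to 0.30, SELE probe 2 from -0.28 to 0.44 and SELP from -0.041 (without OA 4) to 0.38; the other 8 probes kept their sign. Of these, PECAM1 probe 2 (-0.23) ran from -0.42 (without OA 6) to -0.012 (without OA 7), with moves of over 1.5 times also without sham 2, sham 3, sham 4 or sham 6. CDH5 probe 1 was at 0.24 without sham 2, PECAM1 probe 3 at -0.30 without sham 3 and -0.29 without OA 7, VCAM1 at 0.24 without sham 3 and 0.26 without sham 5, and ICAM1 at 0.15 without OA 2 and 0.47 without OA 7.
All tested probes past the threshold numbered 1449, and 2247 with quantile normalization, 2256 in the authors' table, 2551 with no filter, 280 with the replicate number as a block (replicate block), 18 with the slide as a random block, 120 with the scan day in its place, 237 without slide 4, 197 without slides 3 and 4 and 4 with the brightness covariate. They ran from 730 (without sham 1) to 2718 (without OA 1) when each array was left out, and moved by over 1.5 times also without sham 2 (907), sham 3 (930), sham 6 (828), OA 2 (791), OA 3 (734) or OA 5 (951). Higher and lower calls were 1119 and 330, against 1372 and 785 with median scaling, 1570 and 677 with quantile normalization 1509 and 747 in the authors' table, 1122 and 69 with the filter on all 14 arrays, 1308 and 1410 without OA 1, where lower calls outnumber higher ones, and 17573 and 796 with normexp. The replicate block changed no call of an adhesion probe at the adjusted threshold, and 1 of 7 OA arrays correlated best with its own number.
Of the listed genes, 0 passed, against 1 with quantile normalization, the authors' table, the filter on all 14 arrays, trended and robust variances or array weights, 2 with no filter, 3 with median scaling, 16 with normexp, and 0 to 2 when each array was left out.
For the 13 correlations reported, 0 of 286 alternative values changed sign; at an unadjusted permutation p of 0.05, 30 dropped out and 2 came in. The CDH5 pair reached r = 0.51 with quantile normalization and in the authors' table. Over these alternatives PECAM1 probe 1 with CDH5 probe 1 ran from 0.60 (without sham 2) to 0.96, and SELE probe 1 with SELP from 0.47 (without OA 4) to 0.78. The causes were not tested.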
